A study of Mus musculus with 9 samples.

Results

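Enzymes of serine synthesis and of one-carbon metabolism were examined in ribosome-bound RNA of 3 mouse adipose depots. The 9 genes, found by symbol, were Phgdh, Psat1, Psph, Shmt1, Shmt2, Mthfd1, Mthfd1l, Mthfd2 and Aldh1l1, and all 9 were found, each on 1 line, among 22527 gene symbols. Brown fat (BAT), subcutaneous white fat of the groin (inguinal, iWAT) and visceral white fat of the epididymis (eWAT) were taken from C57BL/6 mice aged 8 weeks, with 3 libraries per depot and 9 in all. No treatment is listed, every mouse is listed as wild type, and ribosomes were pulled down with an antibody against GFP, while the sample labels do not say which cells carried a GFP tag. The series title names adipocytes, and the name of the deposited table holds the word adiponectin, a hormone made by adipocytes. The labels do not say whether replicates were separate animals. P-values therefore measure the spread between these libraries, which may be technical.

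Cells make serine from the glycolytic intermediate 3-phosphoglycerate in 3 steps, carried out in order by Phgdh (a dehydrogenase), Psat1 (an aminotransferase) and Psph (a phosphatase). Serine hydroxymethyltransferases then split serine into glycine and a one-carbon unit bound to tetrahydrofolate, Shmt1 in the cytosol and Shmt2 in mitochondria. Mthfd2 and Mthfd1l carry that unit to formate inside mitochondria, the multifunctional Mthfd1 interconverts the folate forms in the cytosol, and Aldh1l1 burns formyl-tetrahydrofolate to carbon dioxide in the cytosol. The pathway feeds purine and thymidylate synthesis and the methylation of homocysteine.

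Values are FPKM, fragments scaled by transcript length and library size, so that levels can be set against each other between genes of a library. Their sums still differed between depots, at 672506 to 683879 in BAT, 473426 to 542144 in iWAT and 545307 to 564830 in eWAT. The main fit applied no further scaling between libraries. With quantile normalization the median log2 difference of BAT against iWAT over all tested genes was 0.04 rather than 0.23. The table carries no read totals. Depth, estimated from the spacing of low values, ran from 2.92 to 21.4 M reads. By this estimate the 3 BAT libraries and eWAT 1 were at 11.6 M reads or more. The other 5 were at 4.70 M reads or less, so that depth and depot run together except in eWAT. The estimate fitted worst in eWAT 1, where 43.7% of the low values used were near a whole number of reads. That library also had fewer symbols above 0 (14829) than eWAT 2 (15828) and eWAT 3 (15446). Its place among the deep libraries is therefore uncertain. The library called BAT 3 is brown fat by its title and source but inguinal fat by its tissue field. The summed level of 8 brown adipocyte markers was 24142 to 27134 FPKM in the 3 BAT libraries, BAT 3 included, and 56.6 to 536 FPKM in the 6 white ones. The library iWAT 1 stood nearer to eWAT than to its own depot. Its correlation across genes was 0.945, 0.963 and 0.962 with eWAT 1 to 3, against 0.899 and 0.934 with iWAT 2 and 3. In pull-downs from homogenized tissue such as these, fewer cells of a type and less RNA per cell cannot be told apart.

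The first 2 enzymes of serine synthesis were far lower in BAT than in either white depot, while the third was higher. Phgdh (chromosome 3, 98117093 to 98143913, build mm9, protein-coding, minus strand) and Psat1 (chromosome 19, 15979168 to 16021827, minus strand) went together. Psph (chromosome 5, 130271434 to 130293129, minus strand) went the other way. Shmt1 (chromosome 11, 60601606 to 60625220, minus strand), the cytosolic enzyme that uses the serine, was also higher in BAT. The RefSeq promoter table (GRCm38.p6) held all 9 genes, Psat1 with 2 starts. The 250 bases before the start are shown for these 4 genes because Phgdh and Psat1 moved against Psph and Shmt1. Each was placed on build mm9 by its single exact match, at chr3:98143893-98144142, chr19:15999550-15999799 (the upstream start of Psat1), chr5:130293130-130293379 and chr11:60624768-60625017, all on the minus strand. Sequences read 5′ to 3′ towards the gene, and capitals mark CCAAT or its complement ATTGG.
Phgdh: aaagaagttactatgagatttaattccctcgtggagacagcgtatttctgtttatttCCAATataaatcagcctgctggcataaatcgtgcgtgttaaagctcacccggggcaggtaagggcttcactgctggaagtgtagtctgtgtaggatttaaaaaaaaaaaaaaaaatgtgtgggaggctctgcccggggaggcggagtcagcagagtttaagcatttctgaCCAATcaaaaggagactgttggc
Psat1: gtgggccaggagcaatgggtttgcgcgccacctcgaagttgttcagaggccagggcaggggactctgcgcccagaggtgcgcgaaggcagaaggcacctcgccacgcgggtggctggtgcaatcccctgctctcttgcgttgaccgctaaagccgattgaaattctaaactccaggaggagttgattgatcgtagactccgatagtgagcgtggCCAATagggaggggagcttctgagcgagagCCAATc
Psph: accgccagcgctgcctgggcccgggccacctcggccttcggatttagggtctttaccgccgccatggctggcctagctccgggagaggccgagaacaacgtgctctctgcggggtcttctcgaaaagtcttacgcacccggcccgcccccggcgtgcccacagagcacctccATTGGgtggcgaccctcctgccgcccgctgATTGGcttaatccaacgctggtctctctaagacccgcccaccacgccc
Shmt1: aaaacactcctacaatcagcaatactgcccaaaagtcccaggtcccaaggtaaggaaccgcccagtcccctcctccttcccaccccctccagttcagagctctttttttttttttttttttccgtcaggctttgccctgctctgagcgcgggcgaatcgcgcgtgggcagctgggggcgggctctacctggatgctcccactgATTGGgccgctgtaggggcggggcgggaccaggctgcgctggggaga
CCAAT, a motif chosen after these sequences were seen, occurred on either strand in 7 of the 9 genes and in 33.8% of the 32851 promoters of the same length in the table. Shmt2, Mthfd1l and the downstream start of Psat1 lacked it. It was present in genes that were lower and in genes that were higher in BAT. None of the 10 windows of the 9 genes held TGATGNAA, the composite element of Atf4 and C/EBP factors (3.45% of promoters on either strand), or the E-box CACGTG (6.02%). The palindromic motif of Nrf1 occurred in Shmt2 alone among the 9 (3.74% of promoters). These windows follow RefSeq starts, and those of Psat1, Shmt1 and Aldh1l1 lie inside the wider GENCODE gene spans given for these genes. No match overlapped another motif.

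Phgdh, the entry enzyme, was at 5.26, 8.53 and 9.62 FPKM in BAT 1 to 3, at 121, 60.7 and 72.7 FPKM in iWAT 1 to 3 and, in eWAT 1 to 3, 192, 217 and 188 FPKM. The 3 depots did not overlap, with BAT lowest and eWAT highest. The means were 7.80 ± 2.27, 84.7 ± 31.8 and 199 ± 15.7 FPKM (SD, n = 3), 10.9-fold higher in iWAT and 25.5-fold higher in eWAT than in BAT. On the log2(FPKM + 1) scale, which understates the change of low genes, the difference was -3.26 (SE 0.30, limma adjusted p = 2.76e-05) between BAT and iWAT and -4.54 (SE 0.30, adjusted p = 4.29e-06) between BAT and eWAT. The rank of Phgdh among all symbols was 413 to 482 in eWAT, 667 to 1069 in iWAT and 4212 to 5774 in BAT, counted from the highest. In the table of log2 differences it was the 62nd lowest of 10374 tested genes in BAT against iWAT and the 27th lowest in BAT against eWAT.

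Psat1, the aminotransferase of the second step, was at 0.593, 0.894 and 1.77 FPKM in BAT, at 32.3, 7.29 and 21.2 FPKM in iWAT and, in eWAT, 54.2, 39.4 and 58.8 FPKM. Again no depot overlapped another. The means were 1.08 ± 0.609, 20.3 ± 12.5 and 50.8 ± 10.2 FPKM (SD, n = 3), 18.7-fold higher in iWAT and 46.8-fold higher in eWAT than in BAT. The log2 difference was -3.17 (SE 0.45, limma adjusted p = 0.000349) against iWAT and -4.65 (SE 0.45, adjusted p = 3.94e-05) against eWAT, the 67th and the 24th lowest of all tested genes. Both calls of Phgdh and of Psat1 were kept in each of the 18 alternatives run. Gm3329, a pseudogene on the opposite strand, overlaps Psat1 by 556 bases, and without strand information reads of the pair cannot be told apart.

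The 4 libraries deepest by the estimate, which is uncertain for eWAT 1, were also compared alone. Phgdh stood at 192 FPKM in eWAT 1 and at 5.26 to 9.62 in BAT, and Psat1 at 54.2 against 0.593 to 1.77 FPKM. With eWAT 2 and 3 left out, a setting added after the data were seen, the log2 differences of BAT from eWAT were -4.49 and -4.77, about as large as with all libraries. Of 8 adipocyte markers 2 were higher and 1 lower in BAT against iWAT, and none and 4 against eWAT. Their summed level was 24563 to 29791 FPKM in BAT, 31737 to 49070 in iWAT and 43288 to 60199 in eWAT, and all 8 were above 0 in every library. Most of that sum was Fabp4, at 21769 to 26122 FPKM in BAT, 29618 to 43756 in iWAT and 36306 to 52538 in eWAT. Plin1 (407 to 459 FPKM in BAT, 89.1 to 302 in iWAT) and Pparg (82.3 to 136, 22.9 to 49.1) went the other way between BAT and iWAT. Within iWAT the highest sum, 49070, was in iWAT 1, which also had the highest Phgdh, Psat1 and Psph of that depot. The part of adipocyte content in these values was not tested.

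**Figure D1:**
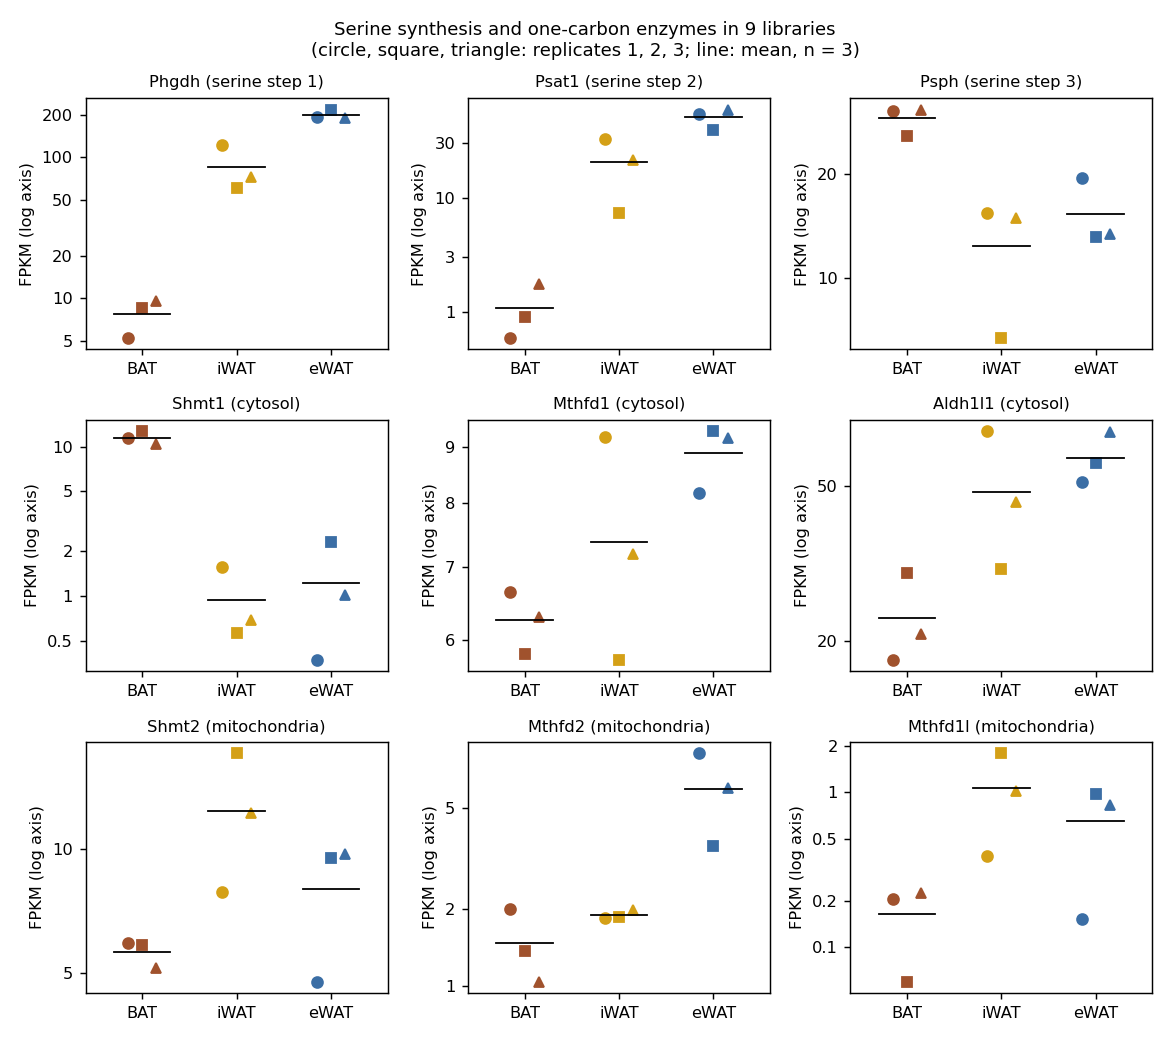
FPKM (log axes) of the 9 enzymes in each library, with circles, squares and triangles for replicates 1, 2 and 3 and a bar at each depot mean (n = 3). Phgdh and Psat1 are lowest in all 3 BAT libraries, Psph and Shmt1 are highest there, and Shmt2 and Mthfd1l have their low values in BAT and in eWAT 1.

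Psph, the phosphatase that completes serine synthesis, was at 30.6, 25.8 and 30.9 FPKM in BAT, at 15.5, 6.71 and 14.96 FPKM in iWAT and, in eWAT, 19.5, 13.1 and 13.4 FPKM. Every BAT library lay above every white one, and the white depots overlapped. The means were 29.1 ± 2.83, 12.4 ± 4.92 and 15.4 ± 3.62 FPKM (SD, n = 3). The log2 difference was 1.24 (SE 0.31, limma adjusted p = 0.00708) against iWAT and 0.90 (SE 0.31, adjusted p = 0.0477) against eWAT. Psph also followed the estimated depth, at 19.5 to 30.9 FPKM in the 4 deepest libraries and at 6.71 to 15.5 FPKM in the other 5. The call against eWAT ended in 10 of 18 alternatives. Adjusted p was 0.125, 0.0913 and 0.135 without BAT 1, BAT 2 and BAT 3, 0.0523 without iWAT 3, 0.144 and 0.14 without eWAT 2 and eWAT 3, and 0.516 without both of these. It was 0.0572 with a pseudocount of 0.1, 0.136 with no filter and 0.0825 with quantile normalization.

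The order of the 3 steps within a library differed between depots. In all 6 white libraries Phgdh was highest, Psat1 next and Psph lowest, whereas in all 3 BAT libraries Psph was highest and Psat1 lowest. The FPKM ratio of Phgdh to Psph was 0.172, 0.33 and 0.312 in BAT, 7.80, 9.04 and 4.86 in iWAT and 9.82, 16.5 and 13.97 in eWAT. A ratio within a library does not depend on how libraries are scaled to each other. The ratio of Phgdh to Psat1 differed less and overlapped between depots, at 5.45 to 9.54 in BAT, 3.43 to 8.32 in iWAT and 3.19 to 5.50 in eWAT. These ratios were chosen after the values were seen and are given without a test.

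**Figure D2:**
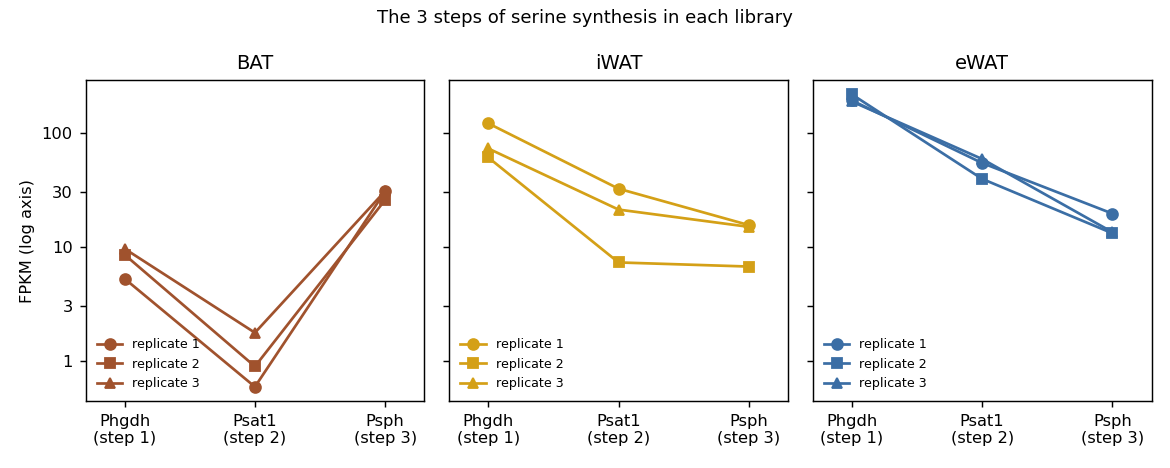
FPKM (log axis) of Phgdh, Psat1 and Psph, in the order of their reactions, with 1 line per library in BAT, iWAT and eWAT. The lines fall from Phgdh to Psph in the white depots (188 to 217 FPKM down to 13.1 to 19.5 in eWAT) and rise from Psat1 to Psph in BAT (0.593 to 1.77 up to 25.8 to 30.9).

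Of the enzymes that move one-carbon units in the cytosol, Shmt1 was higher in BAT, Aldh1l1 was lower and Mthfd1 did not pass the test. Shmt1 was at 11.4, 12.6 and 10.4 FPKM in BAT, at 1.55, 0.560 and 0.685 FPKM in iWAT and, in eWAT, 0.372, 2.28 and 1.01 FPKM. All BAT libraries were far above all white ones, and the white depots overlapped. The means were 11.5 ± 1.12, 0.931 ± 0.538 and 1.22 ± 0.971 FPKM (SD, n = 3), 12.3-fold higher in BAT than in iWAT and 9.41-fold higher than in eWAT. The log2 difference was 2.72 (SE 0.32, limma adjusted p = 0.00012) against iWAT and 2.58 (SE 0.32, adjusted p = 0.000194) against eWAT, and both calls were kept in each of the 17 alternatives that tested the gene. The library eWAT 1, deep by its uncertain estimate, had the lowest Shmt1 of all. Smcr8, a coding gene on the opposite strand that overlaps Shmt1 by 184 bases, was at 1.49 to 3.99 FPKM over the 9 libraries. Without strand information reads from the overlap cannot be told apart, and its share in the white levels of Shmt1 was not tested.

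Aldh1l1 (chromosome 6, 90436421 to 90550197, plus strand), which removes one-carbon units by oxidation, was at 17.9, 29.97 and 20.8 FPKM in BAT, at 68.98, 30.7 and 45.5 FPKM in iWAT and, in eWAT, 51.3, 57.1 and 68.9 FPKM. BAT lay below both white depots, but BAT 2 and iWAT 2 nearly met. The means were 22.9 ± 6.28, 48.4 ± 19.3 and 59.1 ± 8.96 FPKM (SD, n = 3). The log2 difference was -1.003 (SE 0.31, limma adjusted p = 0.0194) against iWAT and -1.35 (SE 0.31, adjusted p = 0.00776) against eWAT. The first call ended with no filter (adjusted p = 0.0683), without BAT 1 (0.0783) and without BAT 3 (0.064), and the second without eWAT 2 and 3 together (0.155). Gm15756, a processed transcript on the opposite strand, overlaps the gene by 3264 bases.

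Mthfd1 (chromosome 12, 77356219 to 77420807, plus strand), the multifunctional cytosolic enzyme, passed neither comparison with BAT. It was at 6.63, 5.83 and 6.29 FPKM in BAT, at 9.19, 5.76 and 7.19 FPKM in iWAT and, in eWAT, 8.17, 9.30 and 9.18 FPKM. The means were 6.25 ± 0.406, 7.38 ± 1.72 and 8.88 ± 0.623 FPKM (SD, n = 3), with log2 differences of -0.19 (SE 0.22, limma adjusted p = 0.468) against iWAT and -0.45 (SE 0.22, adjusted p = 0.134) against eWAT. BAT and eWAT did not overlap, and the second comparison passed with array weights (adjusted p = 0.0104) and with these 2 depots fitted alone (0.0499).

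The mitochondrial branch showed 2 patterns. Mthfd2 (chromosome 6, 83255685 to 83267600, minus strand), a methylene-tetrahydrofolate dehydrogenase best known from embryonic and proliferating cells, was high in eWAT. It was at 2.01, 1.37 and 1.04 FPKM in BAT, at 1.84, 1.86 and 1.98 FPKM in iWAT and, in eWAT, 8.19, 3.54 and 5.99 FPKM. Every eWAT library was above the other 6, which overlapped, and eWAT 1, deep by its uncertain estimate, was the highest. The means were 1.47 ± 0.493, 1.89 ± 0.0797 and 5.91 ± 2.33 FPKM (SD, n = 3). The log2 difference between BAT and eWAT was -1.44 (SE 0.28, limma adjusted p = 0.00266) and that between BAT and iWAT was -0.25 (SE 0.28, adjusted p = 0.459). The former was called in all 17 alternatives that tested the gene.

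Shmt2 (chromosome 10, 126954195 to 126959491, minus strand), the mitochondrial counterpart of Shmt1, was at 5.92, 5.84 and 5.14 FPKM in BAT, at 7.85, 17 and 12.2 FPKM in iWAT and, in eWAT, 4.77, 9.50 and 9.69 FPKM. The lowest value of all was in eWAT 1. The means were 5.63 ± 0.426, 12.3 ± 4.58 and 7.99 ± 2.79 FPKM (SD, n = 3), and log2 differences were -0.95 (SE 0.32, limma adjusted p = 0.0268) between BAT and iWAT and -0.39 (SE 0.32, adjusted p = 0.364) between BAT and eWAT. The call against iWAT ended with no filter (adjusted p = 0.086) and without BAT 1 (0.0589), BAT 2 (0.0643), BAT 3 (0.0802), iWAT 2 (0.0913) or iWAT 3 (0.0674). Against eWAT the difference was called with array weights (adjusted p = 0.0111) and turned to 0.20 without eWAT 2 and 3 (adjusted p = 0.834).

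Mthfd1l (chromosome 10, 6179460 to 6373423, minus strand), the mitochondrial formyl-tetrahydrofolate synthetase, had the lowest mean of the 9 genes in BAT and in eWAT. It was at 0.206, 0.0602 and 0.225 FPKM in BAT, at 0.390, 1.78 and 1.02 FPKM in iWAT and, in eWAT, 0.151, 0.974 and 0.827 FPKM. BAT lay below all 3 iWAT libraries, and eWAT 1 lay within BAT. With only 2 libraries at 1 FPKM or more it missed the filter of 3, so that 8 of the 9 genes were tested. Without a filter its log2 difference was -0.77 (SE 0.30, limma adjusted p = 0.12) against iWAT and -0.47 (SE 0.30, adjusted p = 0.427) against eWAT.

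In both Shmt2 and Mthfd1l the values in BAT lay below those in iWAT. The library eWAT 1, deep by its uncertain estimate, lay with or below BAT, away from eWAT 2 and 3. Depth and depot cannot be told apart between BAT and iWAT. Shmt2 was at 4.77 to 5.92 FPKM in the 4 libraries deepest by the estimate and at 7.85 to 17 FPKM in the other 5. Mthfd1l was at 0.0602 to 0.225 and at 0.390 to 1.78 FPKM. Markers of epithelium and skin were divided in the same way. The summed level of 8 such markers was 24.3 to 50.1 FPKM in BAT, 167 to 456 in iWAT and 65.9 to 223 in eWAT, with 65.9 in eWAT 1 and the highest value, 456, in iWAT 2, where Shmt2 and Mthfd1l were also highest. Skeletal muscle markers (10 genes) summed to 107 to 204, 1852 to 2530 and 240 to 1331 FPKM, again with the lowest eWAT value in eWAT 1. In the white libraries most of that sum was Acta1 and Pvalb, highest in iWAT 2 (1369 and 959 FPKM). The other muscle genes were highest of iWAT in iWAT 1, where Shmt2 and Mthfd1l were lowest of that depot. Tnnc2, for example, was at 310, 69.3 and 101 FPKM in iWAT 1 to 3. Myl1 was higher in BAT (45.8 to 57.9 FPKM) than in any white library (12.6 to 43.6). Stromal progenitor markers (6 genes) summed to 5.55 to 16.0, 95.6 to 361 and 38.0 to 68.9 FPKM. Within the white depots this sum ran the other way, highest of eWAT in eWAT 1 and lowest of iWAT in iWAT 2. It was mostly Dpt, at 339, 75.4 and 204 FPKM in iWAT 1 to 3 and 64.7, 32.7 and 34.4 in eWAT 1 to 3. No other gene of that list was highest of eWAT in eWAT 1, and Pdgfra (0.137 FPKM) and Ly6a (3.01) were lowest there. The part of depth and of epithelium or muscle in the values of Shmt2 and Mthfd1l was not tested. The other marker lists were low in every library: endothelium at 2.90 to 16.0 FPKM summed over 7 genes, macrophages at 0.561 to 5.17 over 6, T, NK and B cells at 0 to 2.6 over 7, mesothelium at 0.438 to 4.68 over 5, Schwann cells at 2.64 to 9.88 over 5 and epididymis and testis at 0 to 2.28 over 7, of which 2 were listed at 0 throughout.

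**Figure D3:**
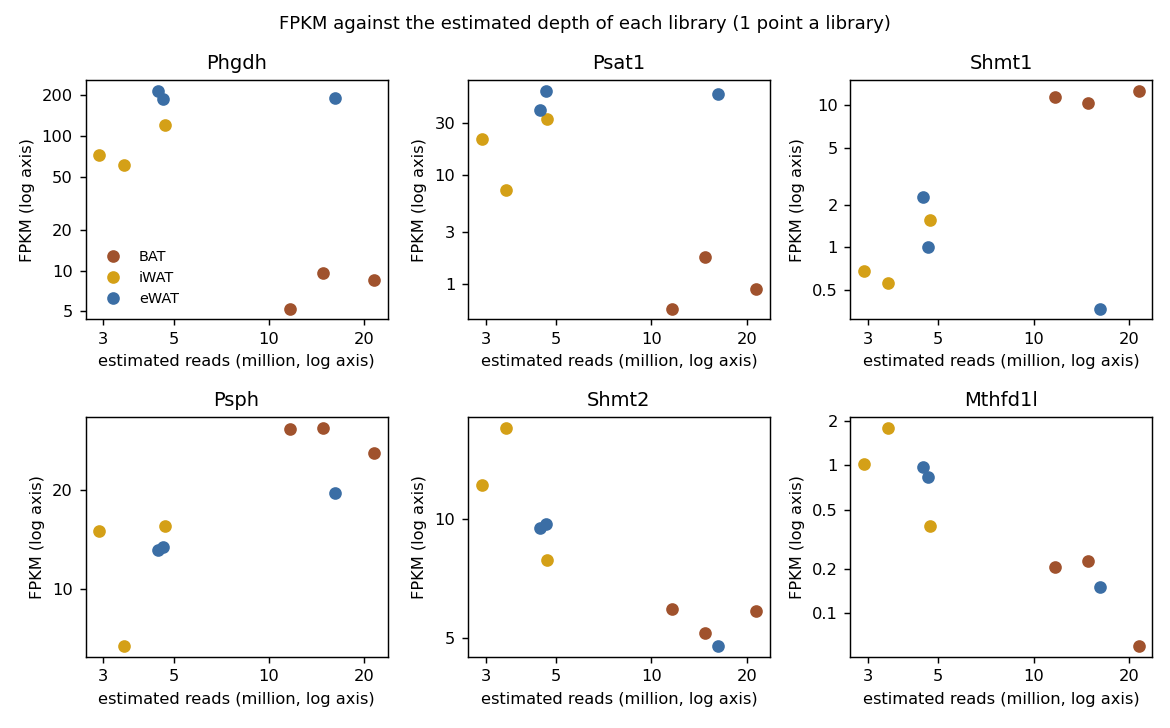
FPKM of 6 enzymes against the estimated depth of each library in M reads (log axes, 1 point per library, coloured by depot). In the upper row eWAT 1, deep by an uncertain estimate, lies with the other eWAT libraries for Phgdh (192 FPKM) and Psat1 (54.2). It lies below all others for Shmt1 (0.372). In the lower row Psph, Shmt2 and Mthfd1l separate the 4 libraries deepest by the estimate from the other 5.

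The balance between the serine hydroxymethyltransferases differed between depots. The log2 ratio of Shmt2 to Shmt1, each as FPKM + 1, was -0.842, -0.995 and -0.891 in BAT, 1.80, 3.53 and 2.97 in iWAT and 2.07, 1.68 and 2.41 in eWAT. Shmt1 was the higher of the pair in all 3 BAT libraries and Shmt2 in all 6 white ones. The means were -0.91 ± 0.08, 2.76 ± 0.88 and 2.05 ± 0.37 (SD, n = 3), so that BAT lay -3.67 from iWAT and -2.96 from eWAT (exact two-sided permutation p = 0.1 each, adjusted p = 0.15 over 6 tests). An exact test of 3 against 3 cannot go below 0.1. The mean log2 level of Shmt2, Mthfd2 and Mthfd1l over that of Shmt1 and Mthfd1, with Aldh1l1 left out of the cytosolic side, was -1.84 ± 0.09 in BAT, 0.09 ± 0.67 in iWAT and -0.01 ± 0.30 in eWAT. The differences of BAT from iWAT (-1.92) and from eWAT (-1.83) had the same exact permutation p = 0.1 and adjusted p = 0.15. With Aldh1l1 added they were -1.17 and -1.03. The white depots differed by 0.71 and 0.09 in these ratios (exact permutation p = 0.3 and 0.8, adjusted p = 0.36 and 0.8).

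Over the 8 tested members, 4 were lower and 2 higher in BAT than in iWAT, where 57.5% of all tested genes were called, 22.9% lower and 34.5% higher in BAT. Against eWAT, 4 were lower and 2 higher, where 33.7% of all genes were called, 13.5% lower and 20.2% higher. That balance over all genes, 1398 lower and 2094 higher, turned to 2217 lower and 1921 higher without eWAT 1, and was 816 lower and 1697 higher without eWAT 3. Phgdh, Psat1 and Aldh1l1 were lower and Psph and Shmt1 higher in both comparisons, Shmt2 was lower against iWAT and Mthfd2 lower against eWAT. The comparisons share the BAT libraries and are not independent. The median log2 difference of the 8 members was -0.60 and -0.90, beside 0.23 and -0.02 for all tested genes, and each difference against iWAT stands against that shift of 0.23. The groups did not overlap for 6 of 8 members in BAT against iWAT (65.7% of all tested genes), 7 of 8 in BAT against eWAT (54.6%) and 3 of 8 in iWAT against eWAT (22.7%).

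**Figure D4:**
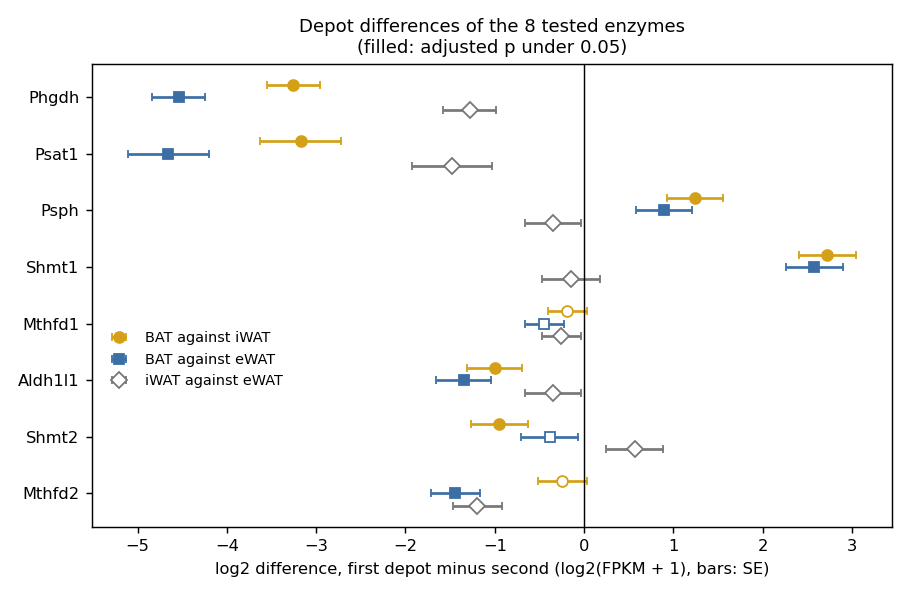
Log2 differences (log2(FPKM + 1), first depot minus second) of the 8 tested enzymes in the 3 comparisons, with bars for the SE and filled symbols for an adjusted p under 0.05. Phgdh and Psat1 lie between -3.17 and -4.65 in both comparisons with BAT, Shmt1 at 2.58 and 2.72, and no member is filled in iWAT against eWAT.

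Between the white depots, no member passed limma at an adjusted p under 0.05, where 1.74% of all tested genes did. At an unadjusted limma p under 0.05 there were 3 of 8 members, Phgdh, Psat1 and Mthfd2, each lower in every iWAT library than in every eWAT library. Of the 86 tested genes of the other pathway lists, 27 passed the same unadjusted threshold, so the count says nothing particular of the members. The log2 differences of Phgdh, Psat1 and Mthfd2 were -1.28 (SE 0.30, limma adjusted p = 0.0602), -1.48 (SE 0.45, adjusted p = 0.0985) and -1.20 (SE 0.28, adjusted p = 0.0589), beside a median of -0.18 for all tested genes. Without iWAT 1 all 3 were called by limma, with adjusted p of 0.0029, 0.00955 and 0.0204, but so were 3315 of 10277 genes, against 180 of 10374 with that library. With array weights the same 3 members (adjusted p = 0.0148, 0.0322 and 0.0335) and 1970 genes in all were called. Without eWAT 2 Mthfd2 was called (adjusted p = 0.047). Same-numbered libraries of these depots, at least replicates 1 and 2, deviate together. With the replicate number as a block, no member was called (limma adjusted p = 0.0684, 0.0708 and 0.0535).

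By their profile over the 9 libraries, the genes most like Phgdh were the collagen V chain Col5a3 (Pearson r = 0.994 on the log2 scale), the annexin Anxa1 (0.994) and the resistin gene Retn (0.993). Those most like Psat1 were the basement membrane gene Nid1 (0.997), the ferroxidase gene Heph (0.997) and the desaturase family gene Fads3 (0.996). Those most like Psph were the aldo-keto reductase gene Akr7a5 (0.984), Spsb3 (0.983) and the mitochondrial ribosomal protein gene Mrps16 (0.981). Among the members, Phgdh and Psat1 correlated at 0.982 and Shmt2 and Mthfd1l at 0.964, while Phgdh and Shmt1 were at -0.879. These values describe 9 libraries in 3 depots, and the libraries of a depot share tissue and, largely, depth.

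The genes around the pathway were taken from 9 lists of 117 genes, of which 86 were tested. In BAT against iWAT 37 were higher and 22 lower, and in BAT against eWAT 27 were higher and 15 lower. Over all tested genes 34.5% were higher and 22.9% lower against iWAT, and 20.2% and 13.5% against eWAT, so that list counts near these shares say nothing particular of a list. Of 6 tested genes for transport of serine and glycine, 1 was higher and 3 were lower in BAT against iWAT, and none was higher and 3 were lower against eWAT, with medians of -0.92 and -0.58. The gene higher than in iWAT was the mitochondrial serine carrier Sfxn1, named outside the rule (log2 difference 0.78, limma adjusted p = 0.021). The 3 lower genes, the same in both comparisons, were Slc7a10, an exchanger of small neutral amino acids such as serine and glycine (3.21 ± 2.28, 50.2 ± 19.2 and 76.9 ± 7.60 FPKM in BAT, iWAT and eWAT), Slc1a5, a transporter of neutral amino acids including glutamine (183 ± 15.3, 394 ± 159 and 635 ± 71.0), and the glycine transporter Slc6a9 (1.32 ± 0.723, 6.09 ± 2.79 and 4.07 ± 1.76, SD, n = 3). The log2 difference of Slc7a10 was -3.70 against iWAT and -4.37 against eWAT (SE 0.42, limma adjusted p = 9.29e-05 and 3.8e-05). Slc6a9 was at 2.38 FPKM in eWAT 1, near BAT 1 (2.02), and at 5.89 and 3.94 in eWAT 2 and 3.

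Of 6 tested genes that use serine, 4 were higher and none lower in BAT against iWAT, and 3 and none against eWAT. They included the serine dehydratase-like gene Sdsl (24.4 ± 2.20, 5.07 ± 4.48 and 7.18 ± 1.24 FPKM in BAT, iWAT and eWAT), Ptdss2, which makes phosphatidylserine (42.0 ± 4.68, 18.0 ± 4.89 and 15.3 ± 3.87), and serine racemase, Srr (11.3 ± 1.23, 4.83 ± 0.917 and 5.04 ± 0.809). Of the glycine cleavage system, the mitochondrial complex that breaks glycine down to a one-carbon unit, 2 of 4 genes were tested and both were higher in BAT. Dld, a subunit shared with the ketoacid dehydrogenases, was at 399 ± 42.5, 59.2 ± 10.2 and 80.7 ± 5.36 FPKM, and Gcsh at 250 ± 8.97, 40.6 ± 18.9 and 71.2 ± 9.24. The defining decarboxylase, Gldc, was at 0 to 0.543 FPKM and the aminomethyltransferase Amt at 0 to 0.743 over the 9 libraries, and neither was tested.

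Of 8 tested genes of the glycolytic steps around 3-phosphoglycerate, 4 were higher and 2 lower in BAT against iWAT, and 6 were higher and none lower against eWAT. The 2 lower genes were Pgam2 (0.0750 to 0.294 FPKM in BAT, 8.20 to 22.4 in iWAT) and Eno3 (2.70 to 3.33 and 6.06 to 17.4). Both were highest of iWAT in iWAT 1, as were most skeletal muscle markers, and the part of muscle RNA in their values was not tested. Pgam1, the mutase that draws on the same substrate as Phgdh, averaged 478 ± 12.5, 73.3 ± 23.6 and 105 ± 18.6 FPKM across BAT, iWAT and eWAT (log2 differences 2.73 and 2.19, SE 0.25, limma adjusted p = 3.14e-05 and 0.000127). Eno1, the next enzyme, was at 449 ± 83.3, 98.4 ± 54.7 and 17.7 ± 11.7 FPKM, and was the only gene of all 9 lists called between iWAT and eWAT (adjusted p = 0.0358). With the replicate number as a block 3 genes were called there.

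Folate genes outside the 9 enzymes went both ways. Of 10 tested, 5 were higher and 2 lower in BAT against iWAT, and 3 and 2 against eWAT. The reduced folate carrier Slc19a1 (12.6 ± 2.58, 4.18 ± 2.61 and 3.86 ± 1.44 FPKM in BAT, iWAT and eWAT) and the mitochondrial formyltransferase Mtfmt (6.17 ± 1.20, 2.88 ± 0.404 and 3.21 ± 1.03) were higher. The glutamate hydrolase Ggh (14.5 ± 1.51, 30.5 ± 13.3 and 49.7 ± 4.5) and the polyglutamate synthase Fpgs (1.46 ± 0.312, 6.86 ± 2.0 and 4.63 ± 1.5) were lower. The mitochondrial folate carrier Slc25a32 and Mthfd2l, a mitochondrial isozyme of Mthfd2, were named outside the rule for choosing genes. Slc25a32 was at 4.06 to 5.95 FPKM in BAT and at 0.615 to 1.10 in the white libraries (log2 differences 1.69 and 1.60, SE 0.21, limma adjusted p = 0.00016 and 0.000268). Mthfd2l was at 2.98 to 4.34 FPKM in BAT, 0.412 to 1.52 in iWAT and 1.57 to 1.93 in eWAT (log2 differences 1.32, limma adjusted p = 0.00172, and 0.70, adjusted p = 0.0526). Of the pair, Mthfd2l was thus the higher in every BAT library and Mthfd2 in every white one.

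Purine synthesis, which takes up formyl units, had 5 of 12 tested genes higher and 2 lower in BAT in each comparison. Paics, of the de novo route, averaged 57.9 ± 4.41, 14.1 ± 4.92 and 22.2 ± 5.48 FPKM across BAT, iWAT and eWAT. In the methionine cycle, 8 of 14 were higher and 4 lower against iWAT, and 4 and 1 against eWAT. Nnmt, which methylates nicotinamide and so uses methyl groups, was at 83.1 ± 26.2, 264 ± 96.7 and 408 ± 106 FPKM, and the Ahcy-like gene Ahcyl1 at 117 ± 12.9, 42.2 ± 16.2 and 25.1 ± 9.87. Ahcy itself, named outside the rule, went the other way between BAT and iWAT. It was at 8.36 to 13.9 FPKM in BAT, 17.7 to 30.8 in iWAT and 8.33, 20.7 and 18.4 in eWAT 1 to 3. Mat2a, which makes S-adenosylmethionine, was at 68.8 ± 14.6, 232 ± 86.6 and 139 ± 66.1 FPKM, a call against iWAT (limma adjusted p = 0.00692) but not against eWAT (0.125). Like Shmt2, it lay with BAT (56.8 to 85.1 FPKM) in eWAT 1 (64.3) and higher, at 144 to 317, in the remaining white libraries. The part of depth in these values was not tested.

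Atf4, the transcription factor known to induce Phgdh, Psat1 and Mthfd2 under amino acid shortage, did not pass the test itself, at 122, 90.1 and 166 FPKM in BAT, 93.4, 168 and 142 in iWAT and 88.2, 111 and 110 in eWAT (limma adjusted p = 0.79 and 0.524). Of 23 tested genes of its list, 8 were higher and 5 lower in BAT against iWAT, and 4 and 4 against eWAT. Asparagine synthetase, Asns, named outside the rule, was at 24.2 to 36.1 FPKM in BAT, 10.9 to 22.8 in iWAT and 24.4 to 25.8 in eWAT. Atf5 (135 ± 10.7, 34.3 ± 15 and 64.7 ± 19.7 FPKM) and Cebpb (1545 ± 487, 365 ± 76.9 and 249 ± 18.3) were higher in BAT, and Nupr1 (33.8 ± 2.76, 86.0 ± 30.6 and 138 ± 9.51) was lower. Most proliferation markers were low, and 5 of 12 were tested, of which 4 were lower in BAT against iWAT and 3 against eWAT. Pcna was neither low nor called, at 20.5 to 26.1 FPKM in BAT, 9.78 to 23.6 in iWAT and 19.8 to 29.6 in eWAT. Mcm3, a helicase subunit, was at 0.646 ± 0.256, 5.95 ± 2.21 and 3.17 ± 1.45 FPKM.

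**Figure D5:**
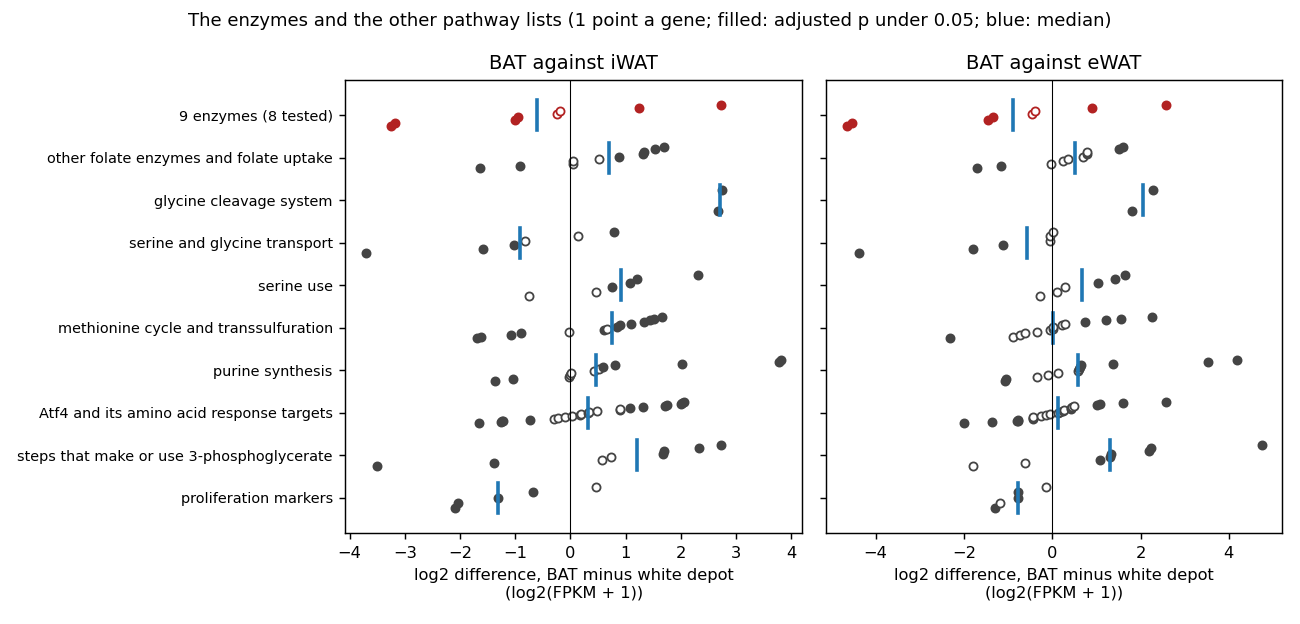
Log2 differences (log2(FPKM + 1), BAT minus white depot) of the tested enzymes (red) and of the genes of 9 other lists (grey), 1 point per gene, filled for an adjusted p under 0.05, with a blue line at the median of each list. The enzymes spread from -4.65 to 2.72, with a median of -0.60 against iWAT and -0.90 against eWAT.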

How the data were processed

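Ribosome-bound RNA of 9 libraries, 3 per depot, was depleted of ribosomal RNA and sequenced from 1 end, per the labels' protocols. The deposited values are FPKM made by the authors with TopHat and Cufflinks on build mm9, per the submitters' processing notes. No unit stands in the header of the table, and versions, annotation and strand settings are not given in the sources used here. Of 22996 lines, 1 line per symbol with the highest mean was kept. Values were analysed as log2(FPKM + 1) with limma 3.58.1 in R 4.3.3 (empirical Bayes with an intensity trend), in 1 fit of 9 libraries with 3 depot means. A gene entered the test at 1 FPKM or more in 3 or more libraries, which 10374 did, and p-values were adjusted over all of these by Benjamini-Hochberg, with calls at 0.05. The procedure was tested on simulated data.

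Depth was estimated from single-transcript genes of at least 1000 bases, with a length offset of 200 bases. Of the low values used, 43.7% to 63.7% per library were a whole number of reads to within 0.15. The depth was chosen to bring low values near whole numbers, so these shares do not test it. Evenly spread values would in part fall that near as well. Named genes were all 9 members and, from each list, up to 3 called genes with the largest difference per comparison with BAT and a higher mean of at least 5 FPKM. For Phgdh, Psat1 and Psph, the 3 most correlated genes were named. The members and lists were chosen with earlier results of these data known. Gene positions are from GENCODE vM1 on mm9.

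Same-numbered libraries of iWAT and eWAT had r of 0.634, 0.534 and 0.165 in their deviations from the depot means, all above a threshold of 0.1. Different-numbered libraries ran from -0.576 to 0.228, a range that holds the value of replicate 3. A pairing of these depots by replicate number therefore rests on replicates 1 and 2. This comes from the values and not the labels. Deviations cancel out within a depot, so high same-number correlations push the different-number ones down. The range of different-numbered libraries is thus no independent reference. For BAT the same-number correlations ran from -0.388 to 0.121, and those of replicate 3 (0.121 with iWAT and 0.103 with eWAT) also passed 0.1. Other settings tried were a pseudocount of 0.1, all genes unfiltered, a mean of at least 5 FPKM, median-ratio scaling, quantile normalization, a fit of only 2 depots, weights per library (array weights), a block for the replicate number, each library left out and, added after the data were seen, eWAT 2 and 3 left out together.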

Additional observations from a re-analysis of the deposited data

How the results depend on the processing

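The 6 members called in BAT against iWAT became 4 to 6, and the 6 in BAT against eWAT 4 to 8, over the alternatives run. Of 418 values of single members under alternatives, 384 kept their direction and their side of the threshold, 20 lost the call, 10 gained it and 4 changed sign. Those were Shmt2 in BAT against eWAT without eWAT 2 and 3 (0.20) and 3 uncalled differences in iWAT against eWAT: Psph without iWAT 2 (0.0098, range -0.54 to 0.0098 with 1 library left out) and Shmt1 with quantile normalization (0.0526) and without eWAT 2 (0.18, range -0.45 to 0.18). Between the white depots, the count of 0 called members became 3 with array weights and lay between 0 and 3 when 1 library was left out. The cause was not tested. Over all genes that comparison had 24 higher and 156 lower calls, 33 and 82 with median-ratio scaling, 42 and 99 with quantile normalization, 79 and 1891 with array weights, 456 and 2859 without iWAT 1, 13 and 11 without eWAT 1, and 11 and 4 without eWAT 3. BAT against eWAT had 2094 higher and 1398 lower calls, 3098 and 3527 with array weights, 1921 and 2217 without eWAT 1, 1631 and 852 without eWAT 2, 1697 and 816 without eWAT 3, and 994 and 417 without eWAT 2 and 3. For the other pathway genes, the count of 59 in BAT against iWAT fell to 39 with a mean of at least 5 FPKM, where 56 rather than 86 genes were tested. The count of 1 in iWAT against eWAT became 0 with a pseudocount of 0.1, with no filter and with 2 depots fitted alone, 3 with the replicate number as a block and 17 with array weights. The block changed no call of a member. The ratio of mitochondrial to cytosolic enzymes differed between BAT and iWAT by -1.92 and between BAT and eWAT by -1.83, by -2.85 and -2.68 with a pseudocount of 0.1 and by -1.17 and -1.03 with Aldh1l1 added. That between the white depots, 0.09, ranged from -0.21 to 0.45 when 1 library was left out. With 2.92 to 4.70 M reads in 5 libraries, levels under 1 FPKM, as for Mthfd1l, rest on few reads.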

Other observations

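Impdh1 and Impdh2, a pair of isozymes of purine synthesis, differed between depots in which was higher. The genes here were chosen after their values were seen. The IMP dehydrogenase Impdh1 was at 129 to 195 FPKM in BAT and 7.85 to 17.6 in the white libraries (log2 differences 3.82 and 3.53, SE 0.28, limma adjusted p = 9.29e-06 and 1.35e-05). Its isozyme Impdh2 was at 9.49 to 11 FPKM in BAT and at 16.4 to 36.4 in the white libraries (log2 differences -1.37 and -1.04, SE 0.26). Impdh1 was thus the higher of the pair in every BAT library and Impdh2 in every white one. The adenylosuccinate synthase Adssl1, an isozyme known from muscle, averaged 38.5 ± 3.34, 2.0 ± 1.13 and 1.28 ± 0.897 FPKM across BAT, iWAT and eWAT (SD, n = 3). The phosphoglycerate mutase Pgam2, also known from muscle, was lower in BAT than in iWAT (limma adjusted p = 0.00186) but did not pass the test against eWAT (0.0631), at 0.161 ± 0.117, 13.4 ± 7.78 and 4.65 ± 4.52 FPKM, below Pgam1 in each depot. Its lowest white value, 0.113 FPKM, was in eWAT 1, as was the lowest white value of the summed muscle markers (107 to 204, 1852 to 2530 and 240 to 1331 FPKM). The part of muscle RNA in the values of Pgam2 was not tested.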
